A study of Mus musculus with 6 samples.

Results

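Serpins are a superfamily of proteins that share one fold, and most of them inhibit proteases. An inhibitory serpin offers an exposed loop as bait, and when a protease cleaves it the serpin changes shape and traps the enzyme in a covalent complex. Clade B members lack a classical signal peptide and act mostly inside cells, where the epidermis makes several of them against serine and cysteine proteases. Clade A members are mostly secreted, and a few serpins inhibit nothing and serve as hormone carriers or as a chaperone of collagen.

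The serpin genes described here are all genes of the expression table whose symbol starts with Serpin, 48 of 19938 genes measured. A gene with several probe sets is represented by its brightest, but each of the 48 serpins had a single probe set, so brightness decided nothing among them. By clade letter they were 15 Serpina, 24 Serpinb, 2 Serpinf and 2 Serpini genes and 1 gene each of clades C, D, E, G and H. The table was made from ear pinna RNA of mice aged 10 to 12 weeks, with 1 mouse and 1 array per replicate. One group of 3 mice had the genotype CLEC4C-DTR/+, and the other 3 were littermates without the transgene. CLEC4C is a human gene of plasmacytoid dendritic cells, and a cell that makes the diphtheria toxin receptor (DTR) from it can be killed by the toxin. Mice of both groups were injected with 200 ng of the toxin on days -1, 1, 3 and 5. Both were sensitised on shaved abdominal skin with 100 µL of 0.5% FITC (fluorescein isothiocyanate, a dye that acts as a contact allergen) in acetone and dibutyl phthalate on days 0 and 2. The ear analysed was the right one, which received 20 µL of 0.5% FITC on day 6, and the time from then to collection is not known here. Mice of neither group went without toxin or without FITC on the analysed ear, and which cells the toxin removed from the ear was not measured by cell counts here.

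Values are log2 intensities after RMA, a normalisation that sets all arrays to nearly the same distribution, and a difference of 1 is 2-fold. They compare a gene between mice. They do not rank one gene against another, because probe sets differ in brightness, so percentiles of brightness below only say how bright a probe set was among the 19938. Differences are CLEC4C-DTR minus control, with limma's standard error (SE), and a gene rose or fell where limma's p adjusted over all 19938 genes was under 0.05. The array medians were 6.17 to 6.23. Epidermal keratins were bright, with Krt5 at the 99.7th percentile and Krt10 at the 99.9th. None of 5 measured plasmacytoid dendritic cell genes passed in limma, although 2 had an unadjusted p under 0.05, as did 27.3% of all genes. Siglech differed by -0.17 (adjusted p = 0.378). The list held 2 rises without littermate control replicate 2 and 1 fall without CLEC4C-DTR replicate 1.

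In CLEC4C-DTR skin 4 serpins rose and 5 fell, while 39 did not pass. The rises were Serpinb3a, Serpinb6c, Serpina9 and Serpinb6b, and the falls were Serpina3b, Serpinb12, Serpinb13, Serpinb8 and Serpinb5. That is 18.8% of the serpins, where 9.32% of all genes tested passed in either direction, 5.01% as rises and 4.31% as falls. At least a 2-fold change was found for 3 of the rises and 3 of the falls, shares that over all genes were 1.67% and 0.376%. The median difference of the 48 serpins was -0.03 and that of all genes -0.04, and with arrays centred on their medians these were 0.02 and 0.01. Over all genes the split was 998 higher and 860 lower, and 1150 higher and 644 lower when each array was centred on its median. The serpin split of 4 and 5 was the same under that scaling and under a further quantile normalisation.

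The brightness of the probe sets went along with the calls. Of 14 serpins above the median brightness of all genes, 5 passed, or 35.7%, beside 14.8% of all genes above it. Of 34 at or below it, 4 passed, or 11.8%, beside 3.87% of all such genes. None of the 20 serpins at or under the 25th percentile of brightness passed limma's test, and 2 of these had an unadjusted p under 0.05. The share of all genes at or under that percentile was not counted. At the 3.87% of all genes at or below the median, 20 genes would hold few calls or none.

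**Figure D1:**
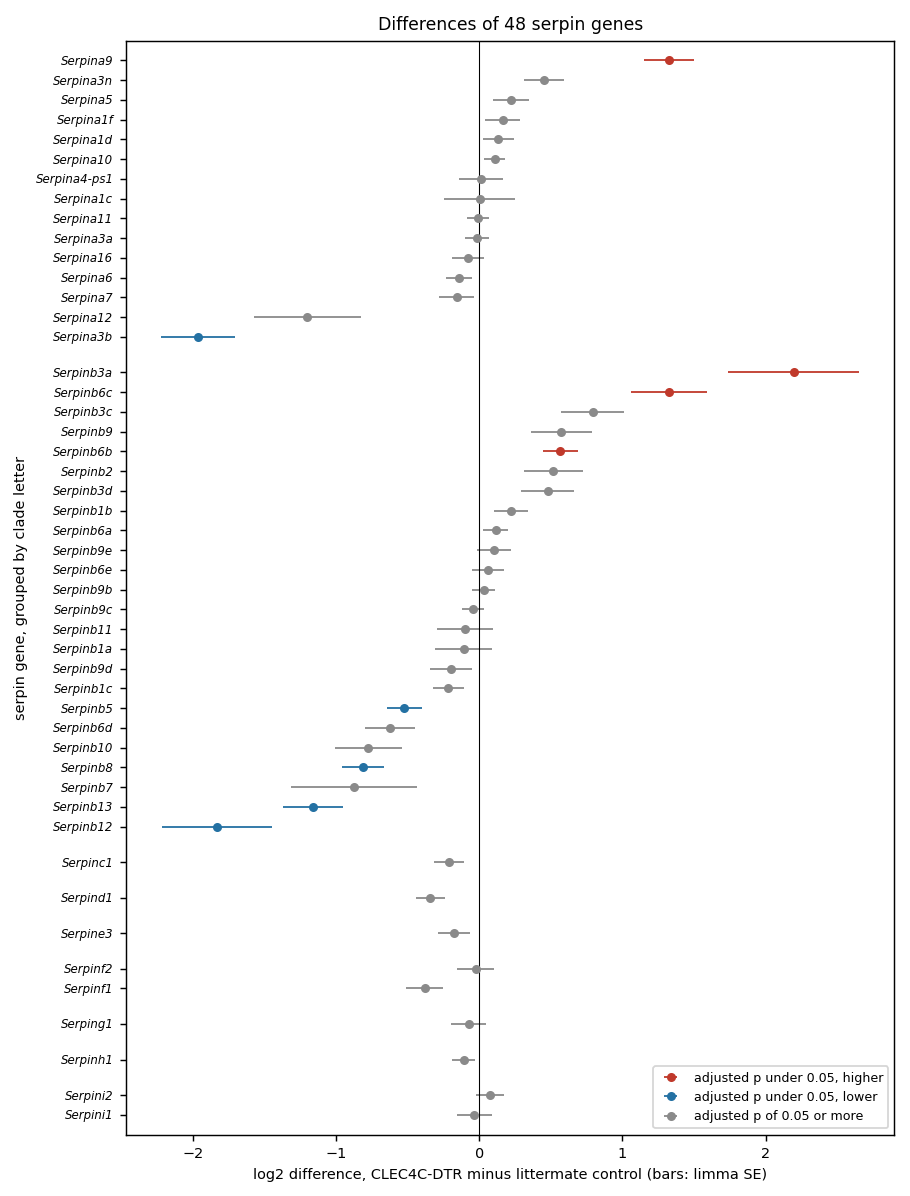
Log2 difference of each of the 48 serpin genes (x axis, CLEC4C-DTR minus littermate control, bars are limma's SE), in rows grouped by clade letter, with colours for an adjusted p under 0.05. The coloured points lie in clades A and B only, from -1.97 for Serpina3b to 2.20 for Serpinb3a, and the genes of clades C to I lie between -0.38 and 0.07.

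The number of calls depended on single mice. Leaving out CLEC4C-DTR replicate 1 gave 7 rises and 8 falls by limma. Leaving out CLEC4C-DTR replicate 2 gave 1 and 2, and leaving out CLEC4C-DTR replicate 3 gave 1 and 0. There were 1 rise and 5 falls without littermate control replicate 2, and 0 serpins passed without littermate control replicate 1 or 3, where 20 and 16 had an unadjusted p under 0.05. Over all genes 1858 passed with every array, and 167 and 67 without those controls. Serpina9 passed in 4 of these 6 fits, Serpina3b in 3, each of Serpinb12, Serpinb13, Serpinb8 and Serpinb5 in 2, and each of Serpinb3a, Serpinb6c and Serpinb6b in 1, the fit without CLEC4C-DTR replicate 1. The values of the 2 groups did not overlap for any of the 9 (33.0% of all genes had groups apart), so leaving out a mouse could not turn a direction.

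Most epidermal serpins of clade B are neighbours on chromosome 1, in a row that runs, as far as measured here, from Serpinb5 to Serpinb8. Of these 11 genes 1 rose and 4 fell, or 45.5%, beside 9.32% of all genes, and 9 had an unadjusted p under 0.05, beside 27.3% of all genes. The 13 measured clade B genes on chromosome 13, Serpinb1a to Serpinb6a, held 2 rises and no fall (15.4%), and 4 had an unadjusted p under 0.05. The 14 clade A neighbours on chromosome 12, Serpina10 to Serpina3n, held 1 rise and 1 fall (14.3%), with 4 at an unadjusted p under 0.05. The shares called on chromosomes 13 and 12 were near that of all genes. None of the 10 genes elsewhere passed limma's test, with 2 at an unadjusted p under 0.05. Neighbours were read from the gene order of assembly GRCm38.p6.

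**Figure D2:**
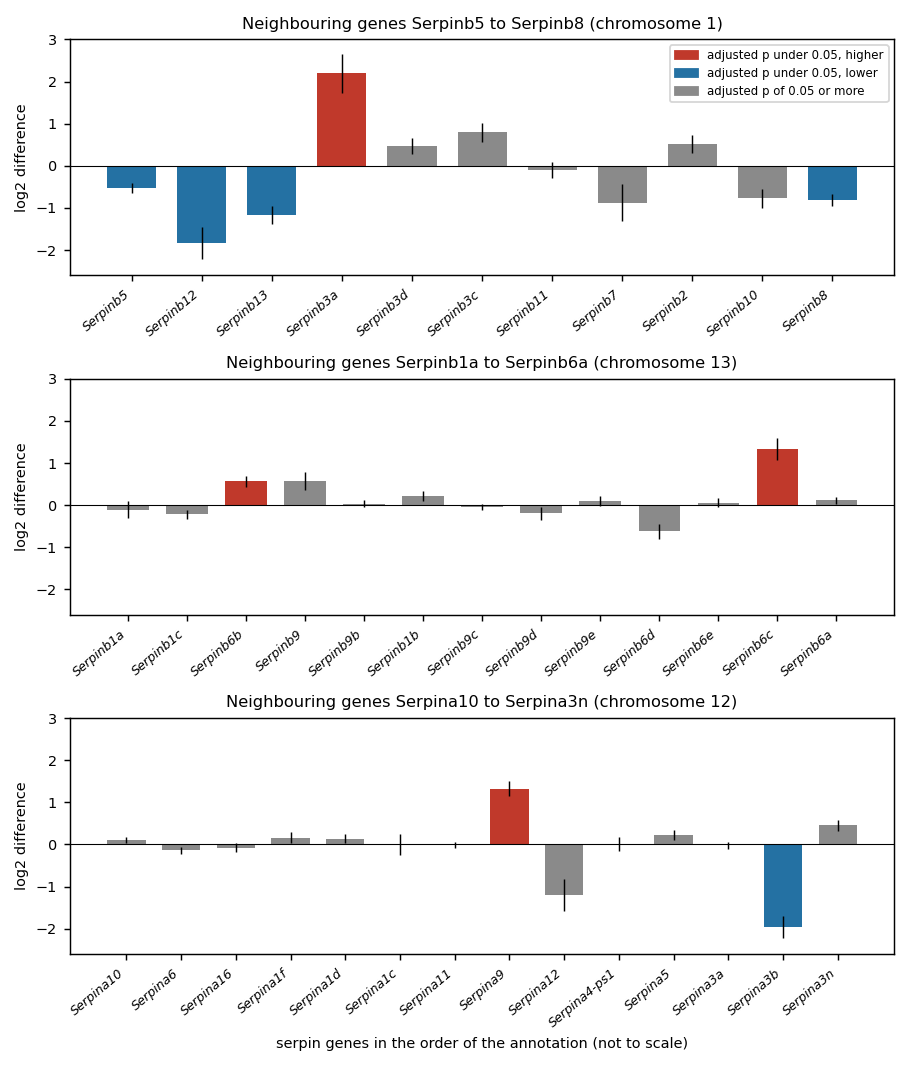
Log2 difference (y axis, bars with limma's SE) of serpin genes in their order along chromosomes 1, 13 and 12, not to scale, with colours for an adjusted p under 0.05. On chromosome 1 the rise of Serpinb3a (2.20) stands next to the fall of Serpinb13 (-1.16), with Serpinb12 (-1.83) and Serpinb5 (-0.52) beyond it.

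The stretches upstream of these genes are shown because neighbours moved in opposite directions. RefSeq promoter windows of GRCm38.p6, which run from 250 bases before to 50 after a gene's start, were at hand for 41 of the 48 serpins and for 10 of the 11 genes of the chromosome 1 row, Serpinb13 being the one without. Each window was searched on both strands for the letters TGANTCA (the AP-1 motif), TTCNNNGAA (STAT), CCCCACCC (KLF) and TATAAA (the core box set close to many starts, here called the TATA letters), and for the motifs of interferon regulatory factors and NF-kB and the p53 family half-site. The 250 bases before the start are printed below, 5′ to 3′ on the gene's strand. Capitals mark the AP-1 letters, or the TATA letters where there were no AP-1 letters. Serpinb5 (chr1:106860925-106861174, plus strand), Serpinb12 (chr1:106934199-106934448, plus strand) and Serpinb8 (chr1:107589756-107590005, plus strand) fell.
Serpinb5: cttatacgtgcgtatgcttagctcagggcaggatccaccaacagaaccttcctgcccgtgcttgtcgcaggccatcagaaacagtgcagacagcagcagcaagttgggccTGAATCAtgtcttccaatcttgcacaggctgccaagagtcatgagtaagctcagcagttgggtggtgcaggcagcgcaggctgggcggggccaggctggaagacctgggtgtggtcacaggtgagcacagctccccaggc
Serpinb12: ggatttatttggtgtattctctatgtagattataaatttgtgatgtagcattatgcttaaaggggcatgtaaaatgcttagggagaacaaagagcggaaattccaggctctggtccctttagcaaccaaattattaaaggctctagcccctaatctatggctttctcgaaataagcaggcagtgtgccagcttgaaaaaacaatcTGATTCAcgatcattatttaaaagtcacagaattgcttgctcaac
Serpinb8: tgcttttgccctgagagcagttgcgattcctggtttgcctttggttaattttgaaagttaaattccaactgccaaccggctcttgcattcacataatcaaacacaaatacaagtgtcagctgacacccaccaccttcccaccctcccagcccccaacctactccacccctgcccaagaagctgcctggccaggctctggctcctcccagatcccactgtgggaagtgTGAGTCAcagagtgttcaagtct
Serpinb2 (chr1:107511173-107511422, plus strand) had the brightest probe set of the family and did not pass.
Serpinb2: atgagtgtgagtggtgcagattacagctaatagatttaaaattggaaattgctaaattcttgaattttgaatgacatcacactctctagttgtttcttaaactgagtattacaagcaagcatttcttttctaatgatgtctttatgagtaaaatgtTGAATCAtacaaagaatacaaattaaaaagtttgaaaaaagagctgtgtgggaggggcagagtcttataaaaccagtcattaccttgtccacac
Serpinb3a (chr1:107052304-107052553, minus strand) rose, and Serpinb3c (chr1:107278372-107278621, minus strand) is its close relative.
Serpinb3a: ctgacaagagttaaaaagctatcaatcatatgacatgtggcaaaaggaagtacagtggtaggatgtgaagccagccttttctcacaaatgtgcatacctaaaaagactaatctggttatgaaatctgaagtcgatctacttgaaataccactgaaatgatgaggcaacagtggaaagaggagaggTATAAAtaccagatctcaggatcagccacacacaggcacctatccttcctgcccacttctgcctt
Serpinb3c: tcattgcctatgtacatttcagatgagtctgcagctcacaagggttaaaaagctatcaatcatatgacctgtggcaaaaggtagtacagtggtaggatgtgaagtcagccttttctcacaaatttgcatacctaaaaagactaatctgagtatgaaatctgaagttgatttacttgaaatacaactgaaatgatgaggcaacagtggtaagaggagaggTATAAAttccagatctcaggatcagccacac

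The AP-1 letters stood in a window of 7 of the 10 genes of the chromosome 1 row, and over all 27025 genes with a window 8.97% held them. The 7 were Serpinb5, Serpinb12, Serpinb11, Serpinb7, Serpinb2, Serpinb10 and Serpinb8, and the 3 without were Serpinb3a, Serpinb3d and Serpinb3c. The first base of the match lay at -140 from the start in Serpinb5, at -45 in Serpinb12, at -94 in Serpinb2 and at -23 in Serpinb8, which had another match at 14. A further Serpinb12 window at another start held none. Of the 12 clade B genes with a window on chromosome 13, none held the AP-1 letters. All 3 of Serpinb3a, Serpinb3d and Serpinb3c held the TATA letters, which 15.7% of all genes held, and so did Serpinb12, Serpinb7 and Serpinb2. Their first base lay at -65 in Serpinb3a and at -31 in Serpinb3c. In the printed Serpinb12 stretch they stand near the 5′ end, far from the start. The search took any place in a window, so a match need not be a core box. In this row the STAT letters were found in Serpinb2 (9.55% of all genes) and the KLF letters in Serpinb10 (11.3%). The interferon regulatory factor motif (3.99% of all genes), the NF-kB motif (7.81%) and the p53 family half-site (9.55%) were found in none of the 10. In a global alignment the windows of Serpinb3a and Serpinb3c were 74.6% identical, beside a median of 44.9% over all 820 pairs of serpin genes. Gaps counted as differences there, also at the ends. The windows of Serpinb3a and Serpinb3c are cut at different places of a similar sequence, so 74.6% understates the likeness of the stretch they share. The window of Serpinb3d was near that median, 45.9% identical to that of Serpinb3a and 48% to that of Serpinb3c. A match is a run of letters and not a measured binding site.

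Serpinb3a, the mouse counterpart of the human squamous cell carcinoma antigens, which inhibit cysteine or serine proteases, had the largest rise of the family. Its log2 values were 5.76, 7.95 and 7.19 in CLEC4C-DTR replicates 1, 2 and 3 and 4.81, 4.80 and 4.69 in the controls. The controls lay close together and all CLEC4C-DTR mice lay above them, with replicate 1 lowest. The difference was 2.20 (SE 0.46, adjusted p = 0.0288, limma), or 4.58-fold. Its relatives Serpinb3c and Serpinb3d differed by 0.79 (adjusted p = 0.0629) and 0.48 (adjusted p = 0.144). For Serpinb3c the groups did not overlap, and for Serpinb3d they did, with CLEC4C-DTR replicate 1 among the controls. Both passed without CLEC4C-DTR replicate 1, and Serpinb3c also with array weights and with a replicate block, over ranges of adjusted p of 0.0155 to 0.185 and 0.0118 to 0.350 across the alternatives. These genes are close relatives, so probes may be shared between them and their values may not be independent, which was not tested.

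Of the serpins that fell in this row, Serpinb12, an inhibitor of trypsin-like proteases, fell most. Its log2 values were 6.87, 5.40 and 6.86 in CLEC4C-DTR replicates 1, 2 and 3 and 8.08, 7.91 and 8.63 in the controls, and replicate 2 was far below the other CLEC4C-DTR mice. The difference was -1.83 (SE 0.38, adjusted p = 0.0293, limma), or 3.55-fold lower. Serpinb13, also called headpin, an inhibitor of lysosomal cathepsins, read 6.32, 5.50 and 5.66 in CLEC4C-DTR mice and 6.81, 7.22 and 6.94 in controls. It fell by 1.16 on the log2 scale (SE 0.21, adjusted p = 0.0198), 2.24-fold, and its highest CLEC4C-DTR value, that of replicate 1, lay just below the lowest control.

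Serpinb8, which inhibits furin, read 7.40, 6.98 and 7.37 in CLEC4C-DTR mice and 8.10, 7.83 and 8.24 in controls. It fell by 0.81 on the log2 scale (SE 0.15, adjusted p = 0.0202, limma), and both groups were tight. Serpinb5, or maspin, an epithelial serpin that does not act as a protease inhibitor and is known as a tumour suppressor, had smaller but even differences. Its values were 10.50, 10.28 and 10.36 in CLEC4C-DTR mice and 11.09, 10.68 and 10.94 in controls, so that it fell by 0.52 on the log2 scale (SE 0.12, adjusted p = 0.0368), 1.44-fold.

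The remaining genes of the row did not pass. Serpinb10, or bomapin, a serpin of blood-forming cells, differed by -0.78 (adjusted p = 0.0773) and its groups did not overlap, although CLEC4C-DTR replicate 2 and control replicate 2 both read 7.08. It passed only without littermate control replicate 2, with an adjusted p of 0.0257 to 0.244 over the alternatives. Serpinb7, whose loss in people causes a thickening of palm and sole skin, differed by -0.87 with a wide SE of 0.44 (adjusted p = 0.246). Serpinb2, the plasminogen activator inhibitor of clade B, read 10.82, 11.73 and 11.24 in CLEC4C-DTR mice and 10.79, 10.60 and 10.85 in controls. Replicate 1 lay among the controls, and the difference was 0.52 (SE 0.21, adjusted p = 0.151). Serpinb2 passed without CLEC4C-DTR replicate 1, with an adjusted p of 0.0228 to 0.307 over the alternatives. Serpinb11 differed by -0.10 (adjusted p = 0.790).

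**Figure D3:**
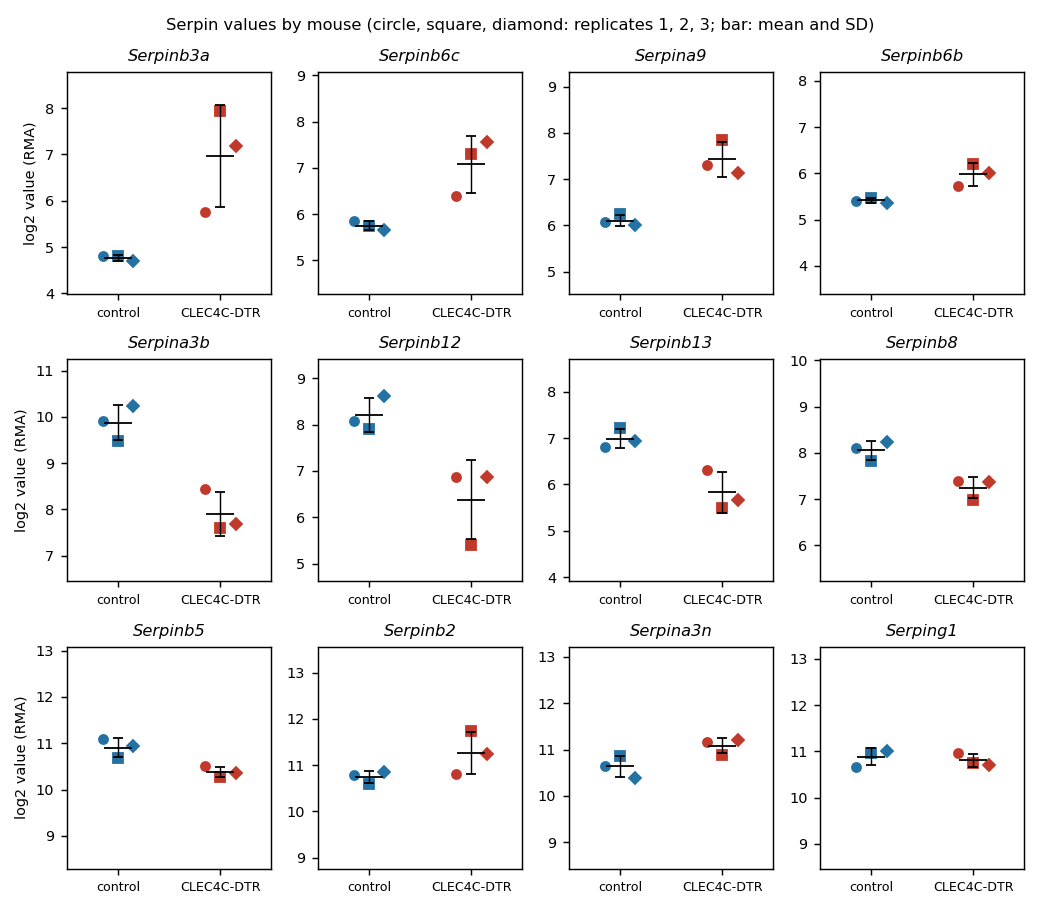
RMA log2 values (y axis) of 12 serpins in the 3 control and 3 CLEC4C-DTR mice, with the mean and SD as bars and a y axis of the same length in every panel. Panels show the 4 rises, the 5 falls and the 3 brightest serpins, and the CLEC4C-DTR mice spread most for Serpinb3a (5.76 to 7.95) and Serpinb12 (5.40 to 6.87).

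On chromosome 13 the genes that rose were both of the Serpinb6 group, relatives of human SERPINB6, an intracellular inhibitor of cathepsin G. Serpinb6c read 6.39, 7.29 and 7.56 in CLEC4C-DTR mice and 5.86, 5.73 and 5.66 in controls. All CLEC4C-DTR values lay above the controls, and the difference was 1.33 (SE 0.26, adjusted p = 0.0260, limma), or 2.51-fold. Serpinb6b read 5.72, 6.21 and 6.01 against 5.41, 5.47 and 5.36, a difference of 0.57 (SE 0.13, adjusted p = 0.0337). Serpinb6d went the other way without passing, at -0.62 (adjusted p = 0.0622), with groups that did not overlap, and it passed without CLEC4C-DTR replicate 1 and with array weights (0.00292 to 0.175 over the alternatives). The bright Serpinb6a and the dim Serpinb6e differed by 0.11 and 0.06 (adjusted p = 0.449 and 0.785). As in the Serpinb3 group, these relatives may share probes.

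Serpinb9, which protects cytotoxic and antigen-presenting cells from granzyme B by inhibiting it, differed by 0.57 (adjusted p = 0.132). It passed with a replicate block only (0.0329 to 0.328 over the alternatives). The groups did not overlap, but CLEC4C-DTR replicate 3 at 6.14 lay close to the highest control at 6.12. Dendritic and T cell markers, whose values stand with the other cell markers at the end, were higher in part, and their part in Serpinb9 was not tested. The Serpinb9b, Serpinb9c, Serpinb9d and Serpinb9e probe sets differed by -0.20 to 0.10. Serpinb1a, the mouse inhibitor of neutrophil elastase, cathepsin G and proteinase 3, read 8.52, 8.55 and 8.31 in CLEC4C-DTR mice and 8.96, 8.67 and 8.09 in controls. The groups overlapped and the difference was -0.11 (adjusted p = 0.773), while Serpinb1b and Serpinb1c differed by 0.22 and -0.22 (adjusted p = 0.287 and 0.242).

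Among the secreted serpins of clade A, Serpina3b had the largest fall of the family. It belongs to the group that rodents expanded from one ancestor of alpha-1-antichymotrypsin. Its log2 values were 8.45, 7.59 and 7.68 in CLEC4C-DTR mice and 9.90, 9.48 and 10.24 in controls. The groups were well apart, with 8.45 and 9.48 as their nearest values, and the difference was -1.97 (SE 0.26, adjusted p = 0.0116, limma), or 3.90-fold lower. Serpina3n, of the same group and known as an acute phase gene that inhibits granzyme B and cathepsin G, was one of the 3 brightest serpins. It read 11.17, 10.89 and 11.20 in CLEC4C-DTR mice and 10.64, 10.86 and 10.39 in controls. The groups did not overlap, although the replicates numbered 2 nearly met, and the difference was 0.45 (SE 0.14, adjusted p = 0.0799). It passed with array weights only, with an adjusted p of 0.0494 to 0.240 over the alternatives. Serpina3a differed by -0.02.

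Serpina9, also called centerin and known from germinal centre B cells, had the smallest SE relative to its difference among the rises. It read 7.30, 7.85 and 7.13 in CLEC4C-DTR mice and 6.07, 6.24 and 6.00 in controls, a difference of 1.32 (SE 0.18, adjusted p = 0.0121, limma), or 2.51-fold. No B or plasma cell gene passed limma's test among 8 measured, with 3 at an unadjusted p under 0.05 (Mzb1 at -0.35, Cd79b at 0.31 and Sdc1 at 0.33). With 1 array left out the list held at most 1 rise and 1 fall. The list was added after the Serpina9 values were seen. Its Ms4a1, Cd79a and Jchain probe sets lay at percentiles 9.52, 11.9 and 5.24 of brightness.

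Serpina12, or vaspin, an adipokine that inhibits the kallikrein Klk7 and is also made in epidermis, read 5.56, 4.25 and 5.62 in CLEC4C-DTR mice and 6.43, 5.85 and 6.75 in controls. The groups did not overlap and CLEC4C-DTR replicate 2 was far below the others, and the difference of -1.20 had a wide SE of 0.37 and did not pass (adjusted p = 0.0829). Of the alternatives only the replicate block brought it past the threshold, with an adjusted p of 0.00697 to 0.257 over all of them. Adipocyte genes moved the same way, with 2 falls among 5 (Adipoq by -1.38 and Fabp4 by -1.13), a summed linear level of 390 to 518 in CLEC4C-DTR and 749 to 1348 in control mice, and 0 to 3 falls with 1 array left out, 0 in 4 of the 6 fits. Whether they have a part in the Serpina12 values was not tested. None of the remaining clade A genes, several of which encode plasma proteins or hormone carriers, passed limma's test. Serpina1c, Serpina1d and Serpina1f of the alpha-1-antitrypsin group, Serpina5 (protein C inhibitor), Serpina6 and Serpina7 (carriers of corticosteroids and thyroxine), Serpina10, Serpina11, Serpina16 and the pseudogene Serpina4-ps1 differed by -0.16 to 0.22. None of 7 hepatocyte and plasma protein genes passed in limma, and 1 had an unadjusted p under 0.05, while 5 of the 7 (Alb, Ahsg, Fgb, Hpx and Ttr) lay at or under the 25th percentile of brightness.

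The clades with 1 or 2 genes hold the serpins of blood clotting, complement, vessels and matrix, and none of their 9 genes rose or fell. Serping1, the C1 inhibitor of complement and one of the 3 brightest serpins, read 10.97, 10.75 and 10.70 in CLEC4C-DTR mice and 10.67, 10.97 and 11.002 in controls. The groups overlapped, and the difference was -0.08 (SE 0.12, adjusted p = 0.732). Serpinh1, the collagen chaperone Hsp47, differed by -0.11 (SE 0.08, adjusted p = 0.421). Serpinf1, known as pigment epithelium-derived factor and a restraint on vessel growth, differed by -0.38 (adjusted p = 0.102) and Serpind1, heparin cofactor II, by -0.34 (adjusted p = 0.0723), each with all CLEC4C-DTR values below the controls. Both passed without CLEC4C-DTR replicate 1, and Serpind1 also with array weights, with adjusted p of 0.0157 to 0.267 and 0.0363 to 0.232 over the alternatives. Serpinc1 (antithrombin), Serpine3, Serpinf2 (alpha-2-antiplasmin), Serpini1 (neuroserpin) and Serpini2 differed by -0.21 to 0.07. Over all 48 genes the groups did not overlap in 19, or 39.6%, where the share of all genes was 33.0%.

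The enzymes that serpins inhibit were taken from lists chosen with earlier results of these data known, and their counts read against the 9.32% of all genes that passed. Of 19 epidermal serine proteases 7 rose, the kallikreins Klk6, Klk7, Klk9, Klk10, Klk11 and Klk13 and the protease Prss27, and none fell, although 1 fell with a replicate block. Klk6 rose by 1.69 (SE 0.15, adjusted p = 0.00802), Klk13 by 2.83 (SE 0.34, adjusted p = 0.00989) and Klk9 by 2.34 (SE 0.30, adjusted p = 0.0112). Klk7, the shedding enzyme of the cornified layer, rose by 0.92 (adjusted p = 0.0140). The list's median difference was 0.31 and that of all genes -0.04, and 3 to 10 rose with 1 array left out, with 3 each when CLEC4C-DTR replicate 3 or control replicate 3 was absent.

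Of 11 cysteine cathepsins and legumain 5 rose and none fell. In limma 9 had an unadjusted p under 0.05, as did 27.3% of all genes. Among these, Ctsk (-0.33), Ctso (-0.47) and Ctsf (-0.45) were lower without passing. Of the whole list 8 genes differed upward and 3 downward. Lgmn, or legumain, rose by 1.26 (SE 0.14, adjusted p = 0.00937, limma), Ctsz by 0.69, Ctss, which trims the invariant chain of class II molecules, by 0.77, Ctsh by 0.49 and Ctsc, the activator of granule serine proteases, by 0.95. Only 1 rose when CLEC4C-DTR replicate 3, or control replicate 1 or 3, was absent, and 3 rose without CLEC4C-DTR replicate 2. Of the 4 neutrophil serine proteases, Elane, Prtn3, Ctsg and Prss57, none passed in limma or had an unadjusted p under 0.05 (0 genes), and 3 of them lay at or under the 25th percentile of brightness. None of 11 granzyme and perforin genes passed, and only Gzmb had an unadjusted p under 0.05 (1.39, adjusted p = 0.0769). The same held for 9 genes listed as mast cell proteases, with the basophil gene Mcpt8 at 0.99 (adjusted p = 0.0834). With 1 array left out, up to 2 of the granzyme list and up to 1 of the mast cell list rose, both without littermate control replicate 2, and 1 of the granzyme list rose with a replicate block. Monocyte and macrophage genes moved the same way as the cathepsins that rose. Of 9 such genes 7 rose, with sums of 7082 to 9073 against 4572 to 5528, and 1 to 7 rose with 1 array left out. Their part was not tested.

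Lists of partners of the secreted serpins held few changed genes. Beside 9.32% of all genes, 12.5% of the plasminogen activation list passed, 14.3% of the clearance receptors and 6.67% of the collagen list, shares near that of all genes from 1 gene each. The shares were 17.6% of the coagulation list and 30.0% of the complement list. Plaur, the urokinase receptor, rose by 2.18 (SE 0.36, adjusted p = 0.0175, limma) as the only one of 8 plasminogen activation genes, and Plau, urokinase itself, differed by 0.40 (adjusted p = 0.131). Of 17 coagulation genes Procr, the protein C receptor, rose by 1.41, F5 by 1.61 and F10 by 0.85. Of 10 complement C1 and lectin pathway genes C1qa, C1qb and C1qc rose by 1.13, 1.07 and 1.14, of which C1qa and C1qb also stand in the macrophage list. The protease genes of that list, among them C1ra, C1s1, C1s2, Masp1 and Masp2, did not pass. These named genes differed by -0.25 (Masp2) to 0.37 (C1s1). Among 7 clearance receptors of serpin complexes Sorl1 rose by 1.20, and among 15 collagen and collagen folding genes P4hb rose by 0.46. None fell in these lists in the comparison as reported, but the collagen list held 1 fall under a further quantile normalisation, under the filter at the median brightness and with a replicate block. With 1 array left out the rises were 0 to 2 of the plasminogen list, 0 to 4 of the coagulation list, 0 to 4 of the complement list, 0 to 2 of the receptors and 0 to 2 of the collagen list, with none without littermate control replicate 3 in any of the 5 lists.

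Genes listed as serine protease inhibitors of other families also changed in both directions, and whether each of them inhibits a protease was not checked here. Of 14 such genes 4 rose and 3 fell. Slpi, the secreted inhibitor of leukocyte elastase, rose by 1.94 (SE 0.24, adjusted p = 0.0108, limma), Wfdc18 by 1.13, Wfdc12 by 1.01 and Spint1 by 0.37. Kazald1 fell by 1.61 on the log2 scale (SE 0.24, adjusted p = 0.0146), Wfdc2 by 1.23 and A2m, a broad protease trap, by 0.51. With 1 array left out 0 to 5 rose and 0 to 3 fell, and 0 passed without CLEC4C-DTR replicate 3, where 8 had an unadjusted p under 0.05.

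**Figure D4:**
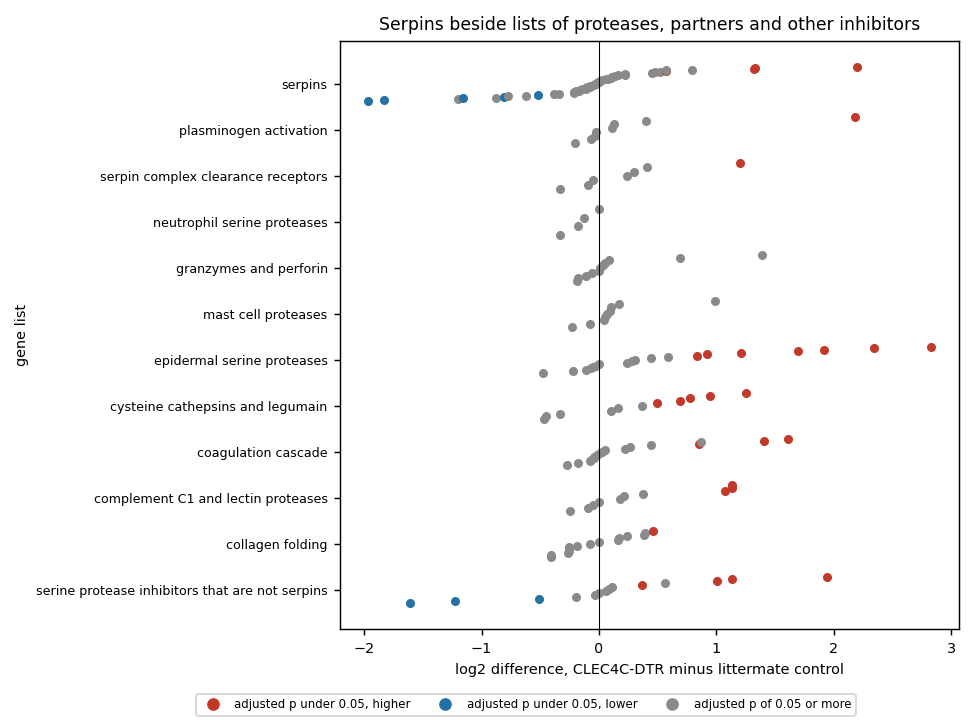
Log2 difference (x axis, CLEC4C-DTR minus littermate control) of the 48 serpins and of the genes of 11 lists (y axis), 1 point per gene, with colours for an adjusted p under 0.05. Serpins reach from -1.97 to 2.20, while the epidermal serine proteases reach from -0.48 to 2.83 with 7 rises and no fall.

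Some lists of cell type markers moved with these results, and the counts of each list are read beside the 9.32% of all genes that passed. All 8 activated keratinocyte genes rose, with a summed linear level of 35496 to 46884 in CLEC4C-DTR mice and 14775 to 15986 in controls. Their list mean stood 1.31, 1.86 and 1.85 (log2) above the controls in CLEC4C-DTR replicates 1, 2 and 3, and 6 to 8 rose with 1 array left out. Of 10 neutrophil genes 8 rose, with a list mean higher by 1.12, 2.44 and 2.25 and a summed level of 18656 to 28661 against 6790 to 8032. Leaving out 1 array left 2 to 9 neutrophil rises, with 2 left without CLEC4C-DTR replicate 3 or control replicate 3. S100a8 and S100a9 stand in both lists, and the neutrophil granule gene Ngp lay under the 25th percentile of brightness. Basal keratinocyte genes held 1 fall among 7, Krt15, with list means of -0.22, -0.57 and -0.39 and sums of 11696 to 13675 against 14992 to 15819. The list held 0 to 3 falls with 1 array left out. The differentiated keratinocyte list held 1 rise among 7, with overlapping sums of 13051 to 18071 and 14648 to 17432. That rise, of Tgm1, was lost when CLEC4C-DTR replicate 3, or control replicate 1 or 3, was absent. The share called was 14.3% in the basal and in the differentiated list, from 1 gene each, near that of all genes. Skeletal muscle genes held 3 falls among 6, with sums of 3390 to 4697 against 5276 to 7803, and 0 to 4 falls with 1 array left out, 0 in 4 of the 6 fits. Dendritic and Langerhans cell genes held 4 rises among 8, with sums of 2186 to 2366 against 1642 to 1763, and with 1 array left out 4 rose when it was CLEC4C-DTR replicate 1 and 0 otherwise. T and NK cell genes held 2 rises among 8, with sums of 999 to 1245 against 687 to 814, 4 rises with arrays centred on their medians, and 0 to 3 with 1 array left out, with 0 when control replicate 3 was absent. Fibroblast genes held 1 rise and 1 fall among 7, with sums of 9097 to 10274 against 10877 to 12427. Of 4 platelet genes 1 rose, with sums of 959 to 1890 against 537 to 805. The mast cell list (1641 to 3234 against 843 to 1203) and the endothelial list (935 to 1037 against 867 to 926) held 1 rise among 7 each. With 1 array left out, rises numbered 0 to 2 in the platelet list and 0 to 1 in the others. In the serpins, CLEC4C-DTR replicate 1 was the mouse nearest to the control mean in 8 of the 9 that rose or fell, and replicate 2 the farthest in 8 of the 9. The part of these cells in the serpin values was not tested, and in whole skin fewer cells of a type cannot be told apart from less RNA per cell.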

How the data were processed

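Total RNA of 6 ears was hybridised to Affymetrix mouse gene arrays. Per the series' design text, the authors ran RMA on the scans, and the deposited values (1.60 to 13.9) are on a log2 scale, judged by their range. Which program ran RMA is not stated in the labels. Build mm8 stands in the submitters' processing notes, without its role. No background measure was used, so no gene was called present or absent, and the number of arrays limits the precision.

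Of 35556 probe sets, 21789 list 1 gene symbol in the platform annotation, 1621 list several and 12146 are not listed. Of the 21789, 21698 matched a RefSeq identifier of GRCm38.p6 and took its symbol, and 91 kept the platform's. The brightest probe set of each gene was used, and no gene was filtered. No arrays held identical values, and the replicates are separate mice.

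CLEC4C-DTR was compared with control by limma 3.58.1 (lmFit and eBayes, statmod 1.5.0, R 4.3.3) without covariates, in a two-sided test. Adjusted p-values are from that fit with Benjamini-Hochberg adjustment over 19938 genes, except the ranges over the alternatives. Those come from the alternative fits, each adjusted over what it tested. The limma step was tested on simulated data. An exact permutation test of 3 against 3 cannot go below 0.1. Members and lists were chosen with earlier results of these data known. Values by mouse are given for serpins that passed with at least a 2-fold difference, for every fall and for the 3 brightest, and of each list up to 3 genes with the smallest p and dim markers are named. Other genes, and values by mouse of other serpins, were chosen after their values were seen. Promoter windows are from RefSeq, searched with Python 3.11.15 and aligned with Biopython 1.88, and figures used matplotlib 3.10.9. Alternatives were 2 other scalings, 2 brightness filters, 2 other moderations, array weights, 2 probe set rules, a replicate block and each array left out.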

Additional observations from a re-analysis of the deposited data

How the results depend on the processing

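Under 7 of the alternatives with all arrays the serpins that passed were the same 9: both other scalings, the filter at the 25th percentile of brightness, the mean-variance trend, robust moderation and both probe set rules. The probe set rules left the serpin values as they were, since each serpin had a single probe set. No serpin that passed changed direction under any alternative. Only the other scalings could have turned a direction, since the other alternatives kept the values and the groups of the 9 did not overlap. The filter at the median brightness tested 14 serpins, of which 5 passed, 1 higher and 4 lower, since fewer genes were tested. The serpin median was -0.11 with the filter at the 25th percentile and -0.25 with that at the median, over 28 and 14 serpins. Array weights gave 6 rises and 7 falls. With 1 array left out, serpins passing numbered 0 to 15, rises 0 to 7 and falls 0 to 8, and genes passing among all 19938 from 67 to 2617. The cause of these differences was not tested. Deviations from the group means correlated at -0.06, 0.22 and 0.10 between same-numbered mice of the groups. With 3 mice per group these values cannot settle whether the replicate numbers pair the mice. A replicate block gave 6 rises and 6 falls among serpins (12 in all) and 1159 and 925 over all genes, and it changed no call of the 9. No serpin at or under the 25th percentile of brightness passed in the limma comparison as reported, although dim Serpinb3c passed with array weights and with the block, and for such probe sets a small change may not have been detectable.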

Other observations

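Probe sets listed with several serpin symbols were left out of the comparison. A pair of them covers the alpha-1-antitrypsin genes Serpina1a to Serpina1e together and differed by -0.07 and -0.21 between CLEC4C-DTR and control mice, at mean log2 values of 4.39 and 5.00. Another 3 cover Serpinb9d to Serpinb9g together and differed by -0.11, -0.20 and -0.09, at means of 4.31, 4.09 and 3.54. None of these differences was tested.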
